A study of Arabidopsis thaliana with 22 samples.

Results

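The glutathione transferases of the tau and phi classes were followed in leaf transcriptomes of Arabidopsis thaliana. The members were chosen by name: GSTU1 to GSTU28, the 28 tau genes, and 11 phi genes, GSTF2 to GSTF11 and GSTF14. These 39 genes were all among the 25680 loci of the deposited table. GSTF12 (TT19) and GSTF13, also phi genes, were not members and were counted with the other glutathione transferase classes. The study compared wild-type leaves (WT, n = 3 libraries per CO2 level) with 4 T-DNA insertion lines of the photorespiratory cycle, hpr1-1, shm1-2, glyk1-1 and pglp1-1 (n = 2 libraries per CO2 level each), which made 10 groups and 22 libraries of polyadenylated RNA. All plants were raised in air with 1% CO2, abbreviated HC, a level at which photorespiration is low. Part of them was moved to 0.038% CO2, abbreviated LC and close to ordinary air, as the night ended. Mature leaves of both sets were taken 8 h after the lights came on. HPR1 is the peroxisomal hydroxypyruvate reductase, SHM1 the mitochondrial serine hydroxymethyltransferase, GLYK the glycerate kinase and PGLP1 the phosphoglycolate phosphatase, all enzymes of the cycle that recycles the product of oxygen fixation by Rubisco. Each gene was represented by a single insertion line, so line and gene cannot be told apart. The labels do not say whether the libraries of a group came from separate plants, and a p-value here speaks to library-to-library spread alone, part of which may be technical.

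Glutathione transferases join the tripeptide glutathione to reactive, electrophilic molecules. Members of the ABCC family of transporters then carry such conjugates into the vacuole. Tau and phi enzymes are the most numerous classes in plants and are best known for detoxifying herbicides and for rising under oxidative stress, pathogen attack and oxylipins. A few have assigned places in metabolism: GSTF6 in the synthesis of the phytoalexin camalexin, GSTF11 and GSTU20 in that of aliphatic glucosinolates, GSTU13 in the turnover of indole glucosinolates. Many promoters of the family respond to TGA transcription factors of the bZIP type, which bind the TGACG core and can act with the GRAS protein SCL14 on genes of xenobiotic detoxification.

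Of the 39 members, 29 lay in 9 tandem clusters and 10 stood alone. The largest cluster held GSTU1 to GSTU7 on chr2:12617936-12632538 (build TAIR10.1, RefSeq annotation). GSTU19 to GSTU23 lay at chr1:29467412-29488007, GSTU24 to GSTU26 at chr1:5869543-5876620, GSTF4 to GSTF7 at chr1:658578-666471, and GSTF9 with GSTF10 at chr2:13138882-13142676. The 4 windows shown here are the 250 bases directly before the annotated transcript start. Overlap of these windows with other annotated genes was not computed. GSTU1 and GSTU7 stand for the ends of the cluster in which every gene rose in 3 lines. GSTU25 and GSTU26 are tandem neighbours that moved in opposite directions in shm1 and glyk1. Capitals mark TGACG or its complement CGTCA, read 5′ to 3′ on the strand of the gene, which is minus for GSTU1 (chr2:12632539-12632788) and GSTU7 (chr2:12618900-12619149) and plus for GSTU25 (chr1:5871774-5872023) and GSTU26 (chr1:5875045-5875294).
GSTU1: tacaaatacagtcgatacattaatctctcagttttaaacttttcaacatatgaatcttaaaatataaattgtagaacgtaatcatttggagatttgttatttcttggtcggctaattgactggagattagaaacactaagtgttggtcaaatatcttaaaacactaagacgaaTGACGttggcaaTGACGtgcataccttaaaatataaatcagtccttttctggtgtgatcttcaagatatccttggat
GSTU7: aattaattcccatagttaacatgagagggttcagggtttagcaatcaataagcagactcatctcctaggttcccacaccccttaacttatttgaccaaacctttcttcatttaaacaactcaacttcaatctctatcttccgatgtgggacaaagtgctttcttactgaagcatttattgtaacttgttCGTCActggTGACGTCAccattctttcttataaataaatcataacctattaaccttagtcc
GSTU25: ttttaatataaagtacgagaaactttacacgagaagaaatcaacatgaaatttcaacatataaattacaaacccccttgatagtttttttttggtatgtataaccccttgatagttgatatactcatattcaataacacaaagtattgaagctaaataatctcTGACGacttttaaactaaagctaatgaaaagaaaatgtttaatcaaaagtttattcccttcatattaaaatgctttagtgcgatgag
GSTU26: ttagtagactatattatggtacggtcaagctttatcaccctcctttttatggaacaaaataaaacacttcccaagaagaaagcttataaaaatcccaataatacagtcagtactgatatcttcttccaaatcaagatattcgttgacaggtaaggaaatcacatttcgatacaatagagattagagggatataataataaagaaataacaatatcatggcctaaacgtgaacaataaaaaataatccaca

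The core was searched on both strands, as TGACG and CGTCA. GSTU1 held 2 matches, separated by 7 letters, and GSTU7 held 3, of which an overlapping pair forms TGACGTCA. The window of GSTU25 held 1 match and that of GSTU26 none. In all, 14 of 39 members had at least 1 match (35.9%; 11 of 28 tau and 3 of 11 phi genes), against 5098 of 27443 protein-coding loci (18.58%) in windows of the same length. A pair of TGACG cores on 1 strand with any 7 letters between them occurred upstream of 2 members, GSTU1 and GSTU7 (5.13%), and of 17 of 27443 loci (0.06%). With 500 bases the shares were 46.15% of members and 32.02% of loci. A match is a description of the letters, and neither a match nor its absence shows what binds there.

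Library totals ran from 5911382 counts (hpr1 LC replicate 1) to 194460991 (shm1 LC replicate 1), so members with few counts were measured least precisely in the former. In WT LC replicate 3, 4996 rows were treated as missing, of which 4919 lay in blocks displaced against their locus names and 77 were single rows. GSTU8 and GSTU27 lay in a displaced block. GSTF8 was 1 of the single rows, listed at 0 there beside 4146 counts on AT2G47720, a locus that overlaps it by 516 bases on the same strand, whereas the other WT LC libraries had 2310 and 1553 counts on GSTF8, and it too was treated as missing. Values of these 3 genes in WT LC rest on 2 libraries. The targeted genes were low in the lines named after them. HPR1 stood at 1.49 and 1.33 counts per 1e6 counts of the TMM-scaled library (CPM) in hpr1 HC, and GLYK at 1.46 and 1.35 in glyk1 HC. Both PGLP1 copies stood at 12.1 or less in pglp1 HC, against 83.7 to 93.1 (AT5G36700) and 182 to 352 (AT5G36790) in WT HC. SHM1 stood at 85.6 and 109 CPM in shm1 HC, against 1446 to 2450 in HC of the other genotypes. In bulk leaves, fewer cells of a type and less RNA per cell cannot be told apart. The 5 leaf mesophyll markers summed to 43880 to 92430 CPM in HC libraries, 72360 to 84700 in pglp1 LC, 15650 (replicate 1) to 77990 in WT LC, 30590 to 30950 in hpr1 LC, 25160 to 25730 in glyk1 LC and 2727 to 5570 in shm1 LC. The 5 epidermis markers summed to 421 to 817 CPM in HC, 363 to 468 in WT LC, 307 to 431 in hpr1 LC, 216 to 239 in glyk1 LC, 200.3 to 216 in pglp1 LC and 94.5 to 100.1 in shm1 LC, and the 5 flower markers summed to at most 2.32 CPM in any library. Mesophyll markers fell in LC at 5 of 5 in shm1, 3 in glyk1, 0 in pglp1 and 0 in hpr1, and epidermis markers at 4, 4, 3 and 3 of 5. Of 5 guard cell and 4 phloem markers, 1 each rose in shm1, glyk1 and pglp1. The 5 root markers summed to 58.4 to 222 CPM in HC, 342.5 to 533 in pglp1 LC and 8.01 to 34.0 in shm1 LC. Of them BGLU21, AT5G17820 and AT3G01190 stayed below 1 CPM in every library. In pglp1 LC the sum was nearly all GAMMA-TIP (336 and 529 CPM), with PYK10 at 6.34 and 3.53 CPM. The part of these shifts in the results was not tested.

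Per transcript length, phi genes dominated the family in HC. GSTF9, an abundant phi enzyme, had the highest median over the 22 libraries, at 1293 deposited RPKM, the authors' read values scaled for gene length and library size. GSTF2, which binds camalexin and other indoles, followed at 548 RPKM. GSTF10, the tandem neighbour of GSTF9, stood at 495 RPKM and GSTU19, an abundant tau enzyme known to rise after herbicide safeners, at 442 RPKM. GSTF6 and GSTF7, a closely similar pair linked to pathogen defence, came next at 252 and 195 RPKM, and GSTU20 at 194 RPKM could not be told from GSTF7, since their order turned when CPM per kilobase was ranked. At the other end, GSTU14, GSTU21 and GSTF14 had a median of 0, and with GSTU15 they were too low to be tested (8 to 86 counts over all libraries). The remaining 35 members, 25 tau and 10 phi, were tested.

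**Figure D1:**
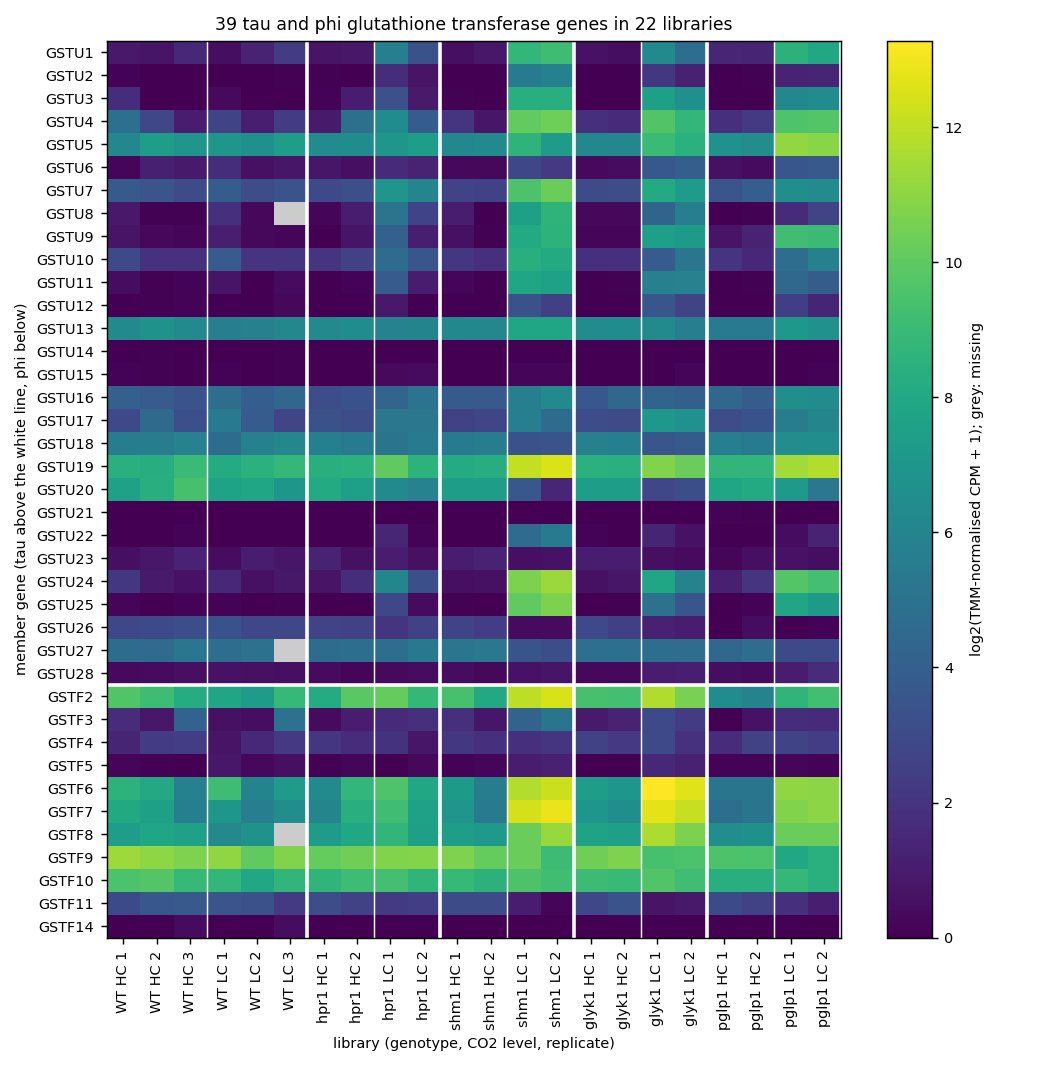
Level of each member in each library, as log2 of CPM plus 1, with members in rows in number order (tau above the white line, phi below) and libraries in columns grouped by genotype and CO2 level. The shm1, glyk1 and pglp1 LC columns stand apart from the other libraries in most tau rows, and the 3 values missing in WT LC replicate 3 are grey.

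GSTF9 made up 29.17% to 45.04% of the summed RPKM of the family in the HC libraries, and it held first place there, in WT LC and in hpr1 LC. In LC leaves of shm1, glyk1 and pglp1 its share was between 1.51% and 4.52%. First place then went to a different gene in each line. GSTF7 held 20.95% and 22.2% in the shm1 LC libraries, GSTF6 held 32.87% and 33.74% in glyk1 LC, and GSTU19 held 18.35% and 23.26% in pglp1 LC.

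**Figure D2:**
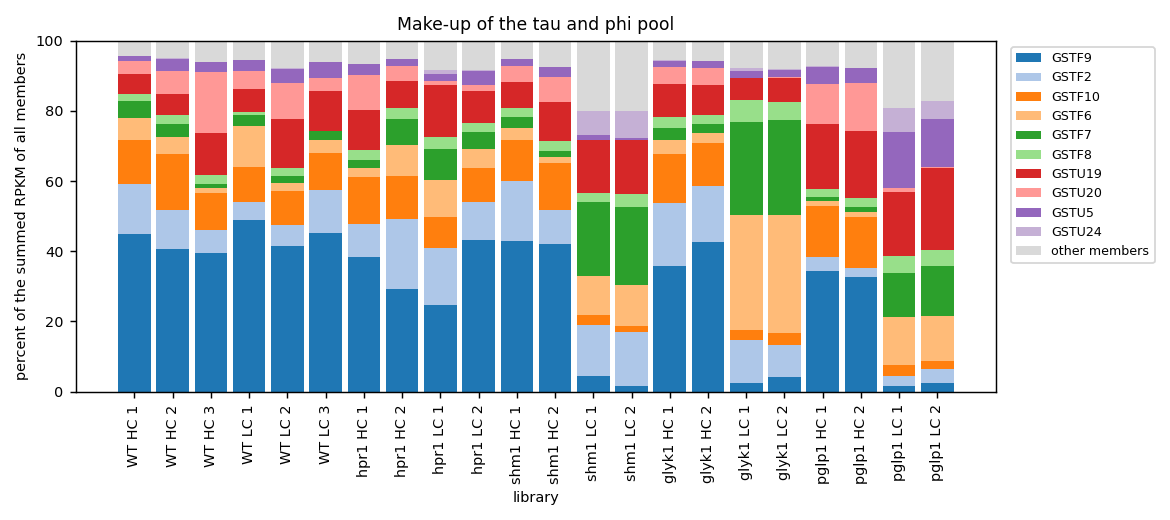
Share of the summed RPKM of the 39 members taken by each of the leading genes, in percent, per library. GSTF9 leads in the HC, WT LC and hpr1 LC libraries, GSTF7 in shm1 LC, GSTF6 in glyk1 LC and GSTU19 in pglp1 LC. WT LC replicate 3 lacks the 3 members that were missing there.

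The balance of the 2 classes differed between lines. Tau genes summed to 776 to 1798 RPKM in the 11 HC libraries and phi genes to 1331 to 5604 RPKM. In shm1 LC the tau sum was 11280 and 13460 RPKM and the phi sum 14680 and 17350. In glyk1 LC the tau sum was 3793 and 2734 RPKM against a phi sum of 18910 and 13100, so tau genes held 16.7% and 17.26% of the total. In pglp1 LC the tau sum of 6213 and 6452 RPKM exceeded the phi sum of 3908 and 4401, and tau genes held 61.39% and 59.45%. The HC libraries of the same lines already differed, with tau shares of 18.75% and 28.01% in shm1, 21.29% and 20.6% in glyk1 and 41.77% and 44.19% in pglp1, the last being the highest of any HC library. The hpr1 LC replicates stood apart from each other, with tau sums of 2330 and 1039 RPKM and phi sums of 6230 and 3434. These sums are a description. With 2 libraries a group, an exact permutation test of 1 such value cannot give a two-sided p below 0.333.

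**Figure D3:**
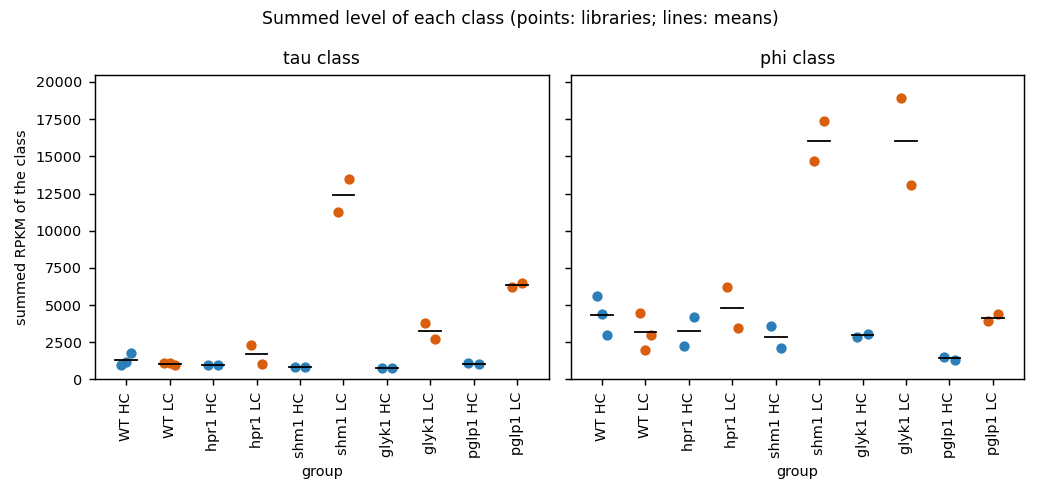
Summed RPKM of the 28 tau and the 11 phi genes in each library, by group, with points for libraries (blue HC, orange LC) and lines for group means. The tau sums are highest in shm1 LC and then pglp1 LC, and the phi sums in shm1 LC and glyk1 LC.

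In WT leaves, lowering the CO2 level did not move a member past the threshold, an adjusted p of 0.05 by edgeR's quasi-likelihood test with Benjamini-Hochberg adjustment over 20372 loci. None of the 35 tested members was called higher (0.00491% of all loci were) or lower (0.0147% of all loci). The smallest adjusted p among members was 0.269, and DESeq2 also called 0. An unadjusted p under 0.05 was found for 5 members. The share of all loci at that cut is not given here, so the 5 are not read as a result about the family. The median log2 fold change was 0.03 for tau and −0.56 for phi genes, against −0.05 for all loci. WT libraries differed among themselves in single members. GSTF6 stood at 566 CPM in WT LC replicate 1 and at 62.0 and 153 CPM in the others. GSTU20 stood at 693 CPM in WT HC replicate 3 and at 194 and 315 CPM in the others.

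In HC, hpr1, shm1 and glyk1 had no member called against WT in either direction. All loci were called higher at 0% in hpr1, 0.00491% in shm1 and 0% in glyk1, and lower at 0.00491%, 0.0147% and 0.00491%. The members with an unadjusted p under 0.05 numbered 1, 4 and 2, again without the share of all loci at that cut, and DESeq2 called 0 in each. In pglp1, 4 members were lower than in WT and 0 higher, where 2.42% of all loci were lower and 1.64% higher. GSTU26 stood at 0 and 0.374 CPM in pglp1 HC against 6.33, 6.999 and 8.26 in WT HC. The groups do not overlap, and the difference was −4.97 ± 0.57 (log2, SE; adjusted p = 0.00063). GSTF2 stood at 88.1 and 61.4 CPM against 812, 570.3 and 294 in WT, a difference of −2.90 ± 0.70 (adjusted p = 0.033). GSTF9 stood at 768 and 721 CPM against 2551, 2064 and 1699 in WT, a difference of −1.50 ± 0.38 (adjusted p = 0.037). GSTU13 was also lower (−1.07 ± 0.22, adjusted p = 0.017). In all 4 the pglp1 libraries lay below each WT library. GSTU26 alone of them kept its call under every alternative run. The count of 4 was 1 without WT HC replicate 2 or either pglp1 HC library, 2 without WT HC replicate 1 or glyk1 HC replicate 1, and 8 by DESeq2.

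A pair of HC libraries of different genotypes stood apart in some members. GSTU4 (AT2G29460) stood at 27.9 CPM in WT HC replicate 1 and at 28.4 in hpr1 HC replicate 2, against 0.749 to 6.20 in the other 9 HC libraries. GSTU3 stood at 2.33 and 1.03 CPM in the same libraries and at 0.086 or less in the others. GSTF6 was also highest in these libraries, at 383 and 446 CPM, as was PAD3, the last enzyme of camalexin synthesis, at 85.02 and 112.5 CPM. Replicates of a group thus differed widely for these members before any change of CO2.

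After the change to LC the family rose in the mutants, and to a different extent in each. In shm1, 25 of 35 tested members were higher in LC than in HC (33.3% of all loci were) and 5 lower (32.2% of all loci). In glyk1, 23 were higher (25.4% of all loci) and 5 lower (29.7%). In pglp1, 25 were higher (26.5% of all loci) and 3 lower (28.7%). In hpr1, 10 were higher (8.86% of all loci) and 0 lower (6.38%). The share of members called higher thus stood above that of all loci in each of the 4 lines, and the share called lower stood below it. In the same libraries the epidermis marker sum lay below every HC library in LC of shm1, glyk1 and pglp1. The mesophyll sum did so in LC of shm1, glyk1 and hpr1 and in WT LC replicate 1. The root sum, nearly all of it GAMMA-TIP, lay above every HC library in pglp1 LC. The part of these marker shifts in the counts was not tested. Of the 25 tested tau genes, 19 were higher in shm1, 18 in glyk1, 21 in pglp1 and 10 in hpr1, against 6, 5, 4 and 0 of 10 phi genes. The median log2 fold change of tau genes was 6.64 in shm1, 4.60 in glyk1, 4.39 in pglp1 and 2.06 in hpr1, and that of phi genes 3.32, 2.04, 1.56 and 0.57, with medians over all loci of 0.03, −0.14, −0.11 and 0.07. Setting genes with no HC count at their bound lowers the pglp1 tau median to 4.08.

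**Figure D4:**
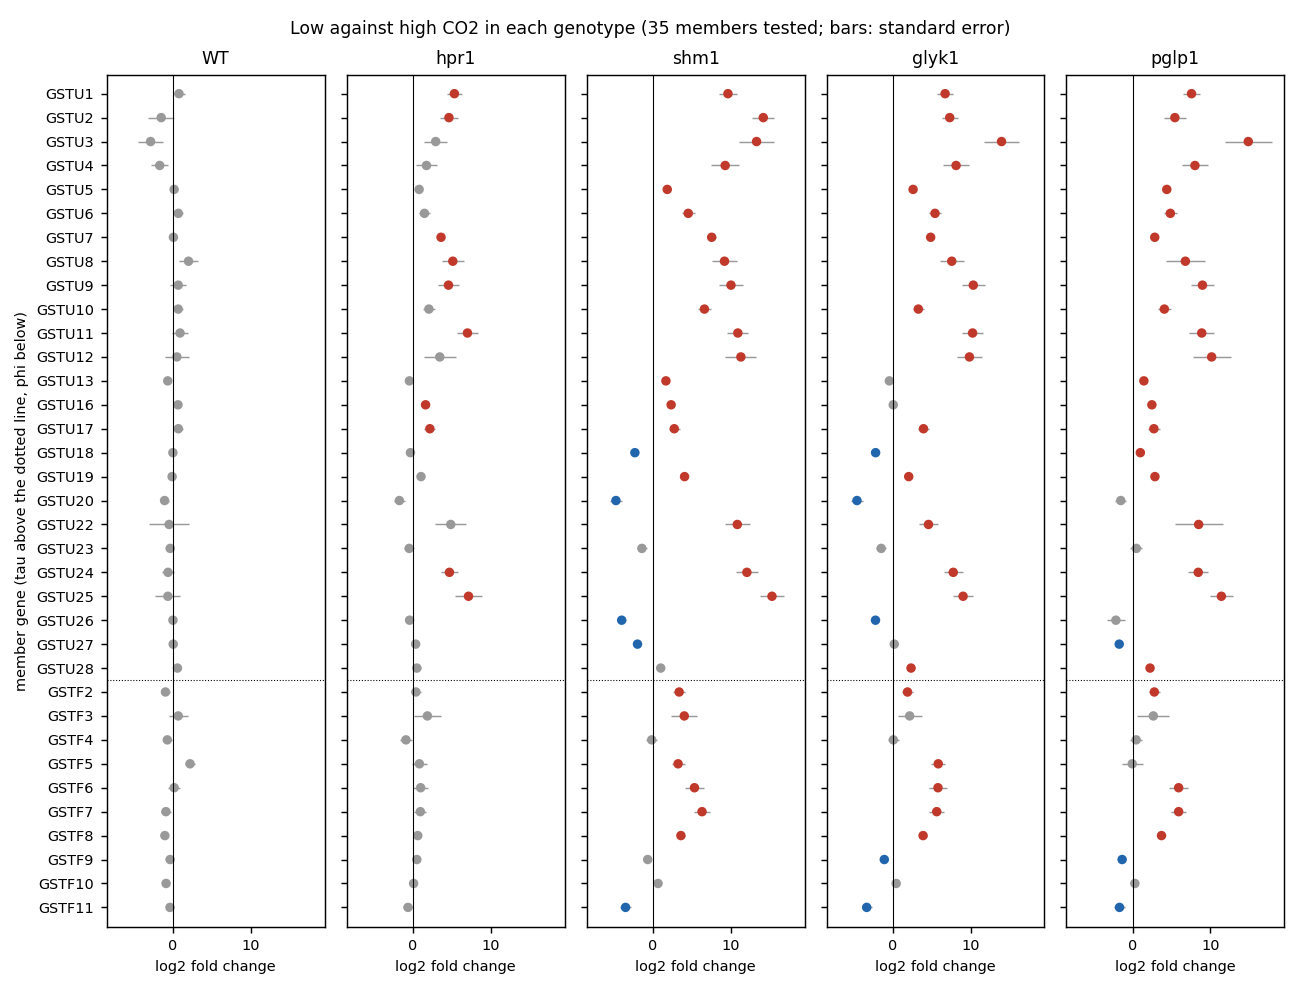
Log2 fold change of LC against HC with its standard error for each tested member in WT and the 4 mutants, red where higher and blue where lower at an adjusted p of at most 0.05, grey otherwise. Most tau members lie to the right of 0 in shm1, glyk1 and pglp1, and GSTU20, GSTU26 and GSTF11 lie to the left.

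Many members were called in several lines, whose HC and LC libraries are separate. The share of all loci called in the same lines together was not computed, so this overlap is not read as particular to the family. The 21 members higher in each of shm1, glyk1 and pglp1 were GSTU1 to GSTU12, GSTU17, GSTU19, GSTU22, GSTU24, GSTU25, GSTF2, GSTF6, GSTF7 and GSTF8. Of these, 9 tau genes were also higher in hpr1. GSTF11 was lower in all 3, and 4 members (GSTF11, GSTU18, GSTU20 and GSTU26) were lower in both shm1 and glyk1. GSTU23, GSTF4 and GSTF10 were called in none. Of the 14 tested members with TGACG in the 250 bases upstream, 12 were higher in shm1, 11 in glyk1, 11 in pglp1 and 6 in hpr1. Of the 21 tested members without it, 13, 12, 14 and 4 were higher.

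The cluster of GSTU1 to GSTU7 rose as a whole. All 7 genes were higher in LC in shm1, glyk1 and pglp1, with median log2 fold changes of 9.30, 6.73 and 5.43 (the last that of GSTU2, with 1 count in HC), and 3 of 7 were higher in hpr1. GSTU7 (AT2G29420) stood at 4.97 to 14.6 CPM in the 11 HC libraries (median 7.92) and at 14.3, 7.91 and 9.63 in WT LC. It reached 771 and 1239 CPM in shm1 LC, 281 and 161 in glyk1 LC, 97.9 and 83.6 in pglp1 LC, and 121 and 64.5 in hpr1 LC. Every mutant LC library lay above every HC and WT library. The log2 fold changes were 7.57 ± 0.49 in shm1 (adjusted p = 7.7e-08), 4.88 ± 0.43 in glyk1 (6.7e-07), 2.85 ± 0.40 in pglp1 (2.5e-05) and 3.62 ± 0.41 in hpr1 (0.0004). GSTU7 was the only member of the family whose call in hpr1 held under every alternative run. The gene shares 636 bases with a locus annotated across it, AT2G08340, and the kit does not mark the strand, so their reads could not be separated.

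GSTU5 (AT2G29450) had the highest level of the cluster in HC and a different order of responses. It stood at 71.3 to 167 CPM in HC (median 85.2) and at 131, 102 and 164 in WT LC. It reached 2222 and 1927 CPM in pglp1 LC, against 535 and 353 in glyk1 LC, 391.7 and 162 in shm1 LC and 129 and 169 in hpr1 LC. The fitted rise was thus greatest in pglp1 (4.39 ± 0.46, adjusted p = 1.7e-06), and the second shm1 library lay within the range of HC. GSTU4 rose from 0.749 to 28.4 CPM in HC to 1101 and 1316 in shm1 LC, 821 and 440.2 in glyk1 LC and 793 and 835 in pglp1 LC. In hpr1 LC it stood at 85.9 and 13.6 CPM, and the second value lay within the HC range (1.75 ± 1.29, adjusted p = 0.36).

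GSTU1 (AT2G29490) stood at 0.407 to 1.89 CPM in HC and at 436 and 560.2 in shm1 LC, 76.8 and 27.0 in glyk1 LC, 367 and 241 in pglp1 LC and 51.3 and 8.79 in hpr1 LC. It passed the test in all 4 lines (9.65 ± 1.14, 6.73 ± 1.00, 7.57 ± 1.05 and 5.33 ± 0.97). Its neighbour GSTU2, 85.93% identical in coding sequence, stayed at or below 3.49 CPM outside shm1 LC. GSTU2 (AT2G29480) had 42.3 and 57.0 CPM there, at least 1010-fold over an HC group with no count, and 1.31 to 3.49 CPM in glyk1 and pglp1 LC. GSTU3 (AT2G29470) had 336 and 337 CPM in shm1 LC, 184 and 101 in glyk1 LC and 73.8 and 83.8 in pglp1 LC. In HC the same lines had 0 to 2 counts of GSTU3, which gave ratios of 11100 (95% counting interval 3080 to 91800) in shm1, 23600 (4230 to 932000) in glyk1, and at least 768-fold in pglp1. Fitted fold changes of such genes depend on the prior count and are not used as sizes. GSTU6 reached 3.58 to 15.5 CPM in LC of these lines from at most 1.27 in HC.

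GSTU24, GSTU25 and GSTU26 are adjacent but did not move together. GSTU24 and GSTU25 are best known for acting on the explosive trinitrotoluene. GSTU24 (AT1G17170) stood at 0.435 to 3.46 CPM in HC (median 0.749) and at 1.85, 0.486 and 0.802 in WT LC. It reached 1622 and 2502 CPM in shm1 LC, 857 and 643 in pglp1 LC, 219 and 61.0 in glyk1 LC and 67.9 and 8.58 in hpr1 LC. The groups do not overlap, and the log2 fold changes were 12.09 ± 1.45 (adjusted p = 5.3e-06), 8.43 ± 1.27 (5.2e-05), 7.78 ± 1.22 (9.3e-05) and 4.70 ± 1.08 (0.015). GSTU25 (AT1G17180) had at most 0.172 CPM in HC and 0.0974, 0 and 0.0573 in WT LC. It reached 1053 and 1597 CPM in shm1 LC, 233 and 150 in pglp1 LC, 31.2 and 10.9 in glyk1 LC and 6.04 and 0.331 in hpr1 LC. In shm1 the 2 HC libraries held 2 counts of it and the LC libraries 275239, a ratio of 39000 after scaling (95% counting interval 10800 to 322000), and in pglp1 the ratio was 2680 (742 to 22100). The lines ranked alike for both genes, except that glyk1 and hpr1 overlapped for GSTU24.

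GSTU26 (AT1G17190) went the other way. It stood at 6.33, 6.999 and 8.26 CPM in WT HC, at 4.33 to 6.63 in HC of hpr1, shm1 and glyk1, and at 9.06, 6.18 and 6.19 in WT LC. It was 0.2999 and 0.3173 CPM in shm1 LC (−3.99 ± 0.49, adjusted p = 5.7e-06) and 1.35 and 1.08 in glyk1 LC (−2.21 ± 0.45, adjusted p = 0.00068). In pglp1 it was near 0 in both CO2 levels, at 0 and 0.374 CPM in HC and 0 and 0.0860 in LC, so that no fall between them could be shown (−2.15 ± 1.16, adjusted p = 0.13). Against WT LC the pglp1 LC libraries held 1 count, a ratio 153-fold lower (95% counting interval 27.3 to 6050). GSTU26 was thus low in pglp1 whatever the CO2 level and low in shm1 and glyk1 after the change to LC. The coding sequences of GSTU24 and GSTU25 are 80.52% identical.

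**Figure D5:**
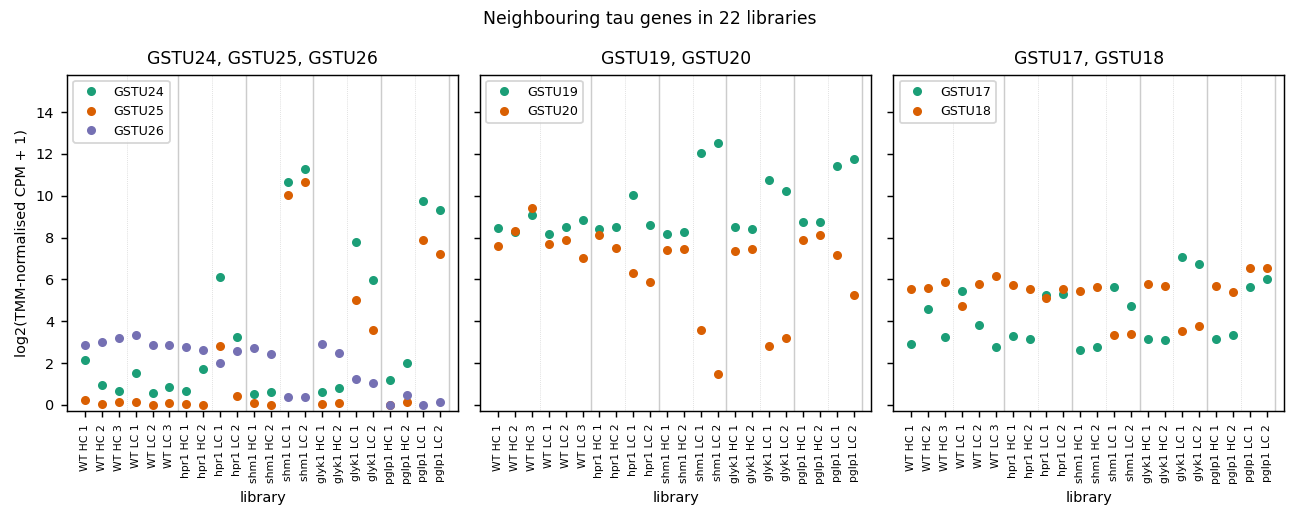
Log2 of CPM plus 1 per library (points) of tandem neighbours whose members moved apart: GSTU24 to GSTU26, GSTU19 with GSTU20, and GSTU17 with GSTU18. GSTU24, GSTU25, GSTU19 and GSTU17 are highest in mutant LC libraries, while GSTU20 is lowest in shm1 and glyk1 LC and GSTU26 in pglp1 at both CO2 levels and in shm1 LC.

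A second split was seen between GSTU19 and GSTU20. GSTU19 (AT1G78380) stood at 290 to 534 CPM in HC (median 346) and at 288, 357 and 458 in WT LC. It reached 4234 and 5829 CPM in shm1 LC (4.08 ± 0.45, adjusted p = 2.3e-06), 2727 and 3500 in pglp1 LC (2.87 ± 0.43, adjusted p = 4.4e-05) and 1714 and 1202 in glyk1 LC (2.06 ± 0.41, adjusted p = 0.00065). In hpr1 LC it was 1050 and 389 CPM, and the second library lay within the HC range. GSTU20 (AT1G78370), which interacts with the jasmonate-conjugating enzyme FIN219/JAR1, stood at 166 to 693 CPM in HC (median 194) and at 206, 232 and 131 in WT LC. It was 11.1 and 1.74 CPM in shm1 LC (−4.73 ± 0.82, adjusted p = 0.00013) and 5.98 and 8.13 in glyk1 LC (−4.59 ± 0.82, adjusted p = 0.00025). In hpr1 LC (78.4 and 58.3 CPM) and pglp1 LC (142 and 37.3 CPM) it lay below every HC library without passing the test (adjusted p = 0.11 and 0.086). In the same cluster GSTU22 rose from at most 0.102 CPM to 24.1 and 42.4 in shm1 LC, and GSTU23 was not called in any line.

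GSTU17 and GSTU18 also diverged. GSTU17 (AT1G10370), or ERD9, an early dehydration-responsive gene that takes part in light and drought signalling, stood at 5.13 to 23.3 CPM in HC. It reached 135 and 105 CPM in glyk1 LC (3.96 ± 0.75, adjusted p = 0.00041), 49.4 and 25.1 in shm1 LC, 49.1 and 64.5 in pglp1 LC and 37.1 and 38.1 in hpr1 LC. WT LC replicate 1, at 42.6 CPM, was as high as some of these. GSTU18 (AT1G10360) stood at 41.6 to 58.2 CPM in HC, and was 9.27 and 9.37 in shm1 LC (−2.30 ± 0.33, adjusted p = 2.4e-05) and 10.6 and 12.4 in glyk1 LC (−2.19 ± 0.33, adjusted p = 6e-05). In pglp1 LC it was 91.4 and 91.8 CPM, higher than in HC (0.99 ± 0.32, adjusted p = 0.016), a call that was lost on leaving out any pglp1 library. GSTU18 was the only member called higher in 1 line and lower in another. The annotated genes overlap by 71 bases on the same strand.

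The other tau genes fell into a group that was nearly silent in HC and a group with steady levels. GSTU9 (AT5G62480) stood at 0 to 1.44 CPM in HC and reached 273 and 379 in shm1 LC, 182 and 150 in glyk1 LC and 596 and 524 in pglp1 LC. GSTU11 (AT1G69930) had at most 0.366 CPM in HC and reached 223 and 194 in shm1 LC, 54.4 and 58.8 in glyk1 LC, 20.9 and 14.0 in pglp1 LC and 13.2 and 1.03 in hpr1 LC. Its neighbour GSTU12 (AT1G69920) stayed low, at 1.64 to 10.7 CPM in the same 3 lines, from at most 0.102 in HC. These 3 genes passed the test in shm1, glyk1 and pglp1. GSTU8 reached 185 and 399 CPM in shm1 LC, 18.7 and 50.7 in glyk1 LC and 2.12 and 5.59 in pglp1 LC, from at most 1.00 in HC, and GSTU10 reached 326 and 273, 13.2 and 36.5, and 26.2 and 53.7 from 1.82 to 6.51. In WT LC, GSTU8 stood at 2.60 and 0.208 CPM and GSTU10 at 12.9, 2.98 and 3.04. WT LC replicate 1 thus lay above the first pglp1 LC library for GSTU8 and close to the first glyk1 LC library for GSTU10. GSTU2, GSTU6, GSTU10 and GSTF4 share 849, 398, 279 and 1014 bases with loci on the opposite strand, whose reads could not be separated either.

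Among the steady genes, GSTU13 (AT1G27130) stood at 42.7 to 111 CPM in HC and rose to 224 and 233 in shm1 LC (1.69 ± 0.24) and to 134 and 103 in pglp1 LC (1.45 ± 0.24), but was 77.1 and 49.4 in glyk1 LC (−0.43 ± 0.23, adjusted p = 0.14). GSTU16 behaved alike, at 49.4 and 76.6 CPM in shm1 LC and 98.6 and 88.3 in pglp1 LC, against 17.6 and 15.4 in glyk1 LC and 7.74 to 20.3 in HC. Neither passed the test in glyk1. GSTU27 (AT3G43800) fell in shm1 (10.0 and 8.05 CPM in LC, −1.96 ± 0.25) and in pglp1 (6.93 and 6.71, −1.72 ± 0.26), and stood at 26.8 and 25.4 CPM in glyk1 LC, within its HC range of 19.8 to 39.4. GSTU28 rose a little in glyk1 and pglp1, to at most 2.24 CPM.

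The phi genes that rose in shm1, glyk1 and pglp1 were the GSTF6 and GSTF7 pair, GSTF2 and GSTF8. GSTF6 (AT1G02930) stood at 34.7 to 446 CPM in HC (median 125). It reached 9942 and 6404 CPM in glyk1 LC (5.82 ± 1.21, adjusted p = 0.00087), 3386 and 4732 in shm1 LC (5.36 ± 1.18, adjusted p = 0.001) and 2185 and 2039 in pglp1 LC (5.92 ± 1.22, adjusted p = 0.00076). Its tandem neighbour GSTF7 (AT1G02920) stood at 27.0 to 334 CPM in HC and reached 6823 and 4391 in glyk1 LC (5.66 ± 0.95, adjusted p = 0.00015), 5435 and 7711 in shm1 LC (6.33 ± 0.98, adjusted p = 4.4e-05) and 1708 and 1983 in pglp1 LC (5.91 ± 0.96, adjusted p = 9.9e-05). GSTF6 lay above GSTF7 in both glyk1 libraries and below it in both shm1 libraries. The 2 coding sequences are 94.74% identical and share 17 windows of 100 bases, so reads may have been split between them. In hpr1 LC, GSTF6 at 797 and 252 CPM and GSTF7 at 589 and 191 CPM had 1 library within the HC range each, and neither passed the test.

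GSTF8 (AT2G47730), a stress-responsive phi gene with a chloroplast isoform, rose by nearly the same amount in 3 lines. It stood at 89.7 to 250 CPM in HC (median 174) and at 75.0 and 108 in the 2 usable WT LC libraries. It reached 1234 and 2370 CPM in shm1 LC (3.61 ± 0.49, adjusted p = 2e-05), 3156 and 1628 in glyk1 LC (3.90 ± 0.50, adjusted p = 2.1e-05) and 1208 and 1242 in pglp1 LC (3.71 ± 0.50, adjusted p = 2.4e-05). Every LC library of the 3 lines lay above every HC library. GSTF2 (AT4G02520) reached 4039 and 5788 CPM in shm1 LC (3.39 ± 0.74, adjusted p = 0.00087) and 3362 and 1563 in glyk1 LC (1.90 ± 0.70, adjusted p = 0.03). In pglp1 LC, at 418 and 615 CPM, it rose from its low HC level (2.79 ± 0.72, adjusted p = 0.004) only to within the range of WT HC. GSTF2 overlaps AT4G02510 by 1442 bases on the opposite strand. GSTF3 (AT2G02930), 94.52% identical to GSTF2, was called in shm1 only, at the edge of the threshold (17.8 and 34.98 CPM in LC, 4.04 ± 1.68, adjusted p = 0.045), while the WT replicate 3 libraries had 17.3 CPM in HC and 30.8 in LC. GSTF5, called higher in shm1 and glyk1, stayed at or below 1.81 CPM in all libraries.

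GSTF9, GSTF10 and GSTF11 were not called higher in LC than in HC in any line. GSTF9 (AT2G30860) stood at 721 to 2551 CPM in HC (median 1351) and at 2120, 1036 and 1739 in WT LC. It was 694 and 732 CPM in glyk1 LC (−1.08 ± 0.39, adjusted p = 0.03), 238 and 348 in pglp1 LC (−1.34 ± 0.40, adjusted p = 0.0093) and 1234 and 551 in shm1 LC (−0.65 ± 0.39, adjusted p = 0.15). GSTF10 (AT2G30870) stood at 328 to 846 CPM in HC and at 342 to 822 in the LC libraries of shm1, glyk1 and pglp1, and was not called. GSTF11 (AT3G03190) stood at 4.97 to 11.98 CPM in HC, and was 1.05 and 0.149 in shm1 LC (−3.50 ± 0.65, adjusted p = 0.00023), 0.642 and 0.905 in glyk1 LC (−3.34 ± 0.65, adjusted p = 0.00053) and 2.58 and 1.20 in pglp1 LC (−1.68 ± 0.67, adjusted p = 0.044). The last call was lost under 14 of the alternatives. GSTF11 overlaps AT3G03200 by 1096 bases on the opposite strand.

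The response of hpr1 was smaller and rested on unequal libraries. The 10 genes called higher were GSTU1, GSTU2, GSTU7, GSTU8, GSTU9, GSTU11, GSTU16, GSTU17, GSTU24 and GSTU25, with log2 fold changes from 1.63 (GSTU16) to 5.33 (GSTU1) for the 7 genes with over 3 counts in HC. The other 3 had ratios of 15.6 (GSTU2, 95% counting interval 5.15 to 77.6), 40.5 (GSTU11, 13.6 to 198) and 46.9 (GSTU25, 8.17 to 1880). The first hpr1 LC library, the shallowest of the series, was higher than the second for most of them. GSTU9 stood at 16.3 and 1.16 CPM and GSTU8 at 34.0 and 5.32, while GSTU17 (37.1 and 38.1) and GSTU16 (19.0 and 32.8) did not share that order. Without that library 4 members were called, without hpr1 HC replicate 2 there were 6, and without hpr1 HC replicate 1 there was 1, GSTU7.

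Set against WT in the same low CO2, shm1, glyk1 and pglp1 had counts close to those between CO2 levels. In hpr1, 6 members were higher (2.15% of all loci) and 0 lower (0.717%), namely GSTU1, GSTU2, GSTU7, GSTU11, GSTU24 and GSTU25. In shm1, 23 were higher (33.2% of all loci) and 6 lower (33.2%). In glyk1, 24 were higher (27% of all loci) and 5 lower (28.8%). In pglp1, 23 were higher (27.2% of all loci) and 4 lower (32.7%). GSTF10 was called here though it was not between CO2 levels, being higher than in WT LC in shm1 (0.86 ± 0.32, adjusted p = 0.025) and glyk1 (0.94 ± 0.32, adjusted p = 0.02). GSTF9 was lower than in WT LC in shm1, glyk1 and pglp1. The 4 comparisons share the WT LC libraries. The hpr1 count of 6 was 1 without hpr1 LC replicate 1, 10 without hpr1 LC replicate 2 and 3 without WT LC replicate 2 or 3.

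The test of whether a line responded to LC differently from WT gave similar counts in 3 lines. The response exceeded that of WT for 23 members in shm1 (27.4% of all loci), 23 in glyk1 (19% of all loci) and 21 in pglp1 (20.8% of all loci). It was lower for 5 (26.4% of all loci), 4 (20.3%) and 1 (20.6%). In hpr1 it exceeded that of WT for 1 member (0.103% of all loci), GSTU7, and was lower for 0 (0.0147%). The difference for GSTU7 was 3.56 ± 0.50 in hpr1 (adjusted p = 0.0072), 7.51 ± 0.54 in shm1, 4.82 ± 0.51 in glyk1 and 2.79 ± 0.49 in pglp1. The hpr1 count of 1 was 0 without either hpr1 HC library and 5 without hpr1 LC replicate 2. GSTU20 fell more than in WT in shm1 (−3.66 ± 0.94) and glyk1 (−3.51 ± 0.94), but not by a detectable amount in pglp1 (−0.44 ± 0.91, adjusted p = 0.73). The median difference of tau genes was 5.97 in shm1, 4.75 in glyk1 and 4.16 in pglp1, and that of phi genes 2.47, 2.19 and 1.59, where all loci had medians of 0.06, −0.11 and −0.08.

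Of the genes of other lists given next, the shares of all loci called higher to read them against were 33.3% in shm1, 25.4% in glyk1, 26.5% in pglp1 and 8.86% in hpr1, and those called lower 32.2%, 29.7%, 28.7% and 6.38%. Of 4 transporter genes of the ABCC family (ABCC1 to ABCC4), 4 rose in shm1, 3 in glyk1, 4 in pglp1 and 2 in hpr1, and none fell. ABCC3 stood at 13.4 to 53.4 CPM in HC and at 3287 and 3950 in shm1 LC, 1698 and 1141 in glyk1 LC, 2648 and 2409 in pglp1 LC and 530.5 and 127 in hpr1 LC. Of 15 genes of other glutathione transferase classes, 5, 6, 4 and 2 rose and 3, 2, 1 and 1 fell in the same order of lines, which in shm1 and pglp1 is about the share of all loci called higher, and 2 of the 15 stayed under 1 CPM in every library. DHAR2, a cytosolic dehydroascorbate reductase, rose in all 4 (5.48 ± 0.34, 3.81 ± 0.31, 2.12 ± 0.29 and 2.51 ± 0.30 on the log2 scale). DHAR3, the plastid form, fell in shm1 (−3.36 ± 0.32), glyk1 (−0.94 ± 0.29) and hpr1 (−0.92 ± 0.29). Of 8 tested genes of glutathione synthesis, reduction and breakdown, 5, 4, 4 and 2 rose and 2, 1, 1 and 0 fell. GR1, the cytosolic glutathione reductase, stood at 24.1 to 52.7 CPM in HC and at 612 and 884 in shm1 LC, 332 and 210.0 in glyk1 LC and 782 and 861 in pglp1 LC. GSH2, glutathione synthetase, rose by 3.34 ± 0.36 in shm1, and GGT1, a γ-glutamyl transferase, by 3.53 ± 0.42 in glyk1 and 3.79 ± 0.42 in pglp1, with 0.37 ± 0.38 in shm1. Of 8 glutathione peroxidase-like genes 4 rose in each of shm1, glyk1 and pglp1 and 2 in hpr1, and 2, 2, 1 and 0 fell, which is no more than the share of all loci called lower. GPX7 rose in the first 3 lines (7.64 ± 0.78, 4.55 ± 0.66 and 5.34 ± 0.68).

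Genes known to respond to xenobiotics and oxylipins through TGA factors and SCL14 also rose. The list held 12 genes, of which 4 are the regulators themselves (AHBP-1B, or TGA2, OBF5, or TGA5, TGA6 and SCL14) and 8 are responding genes. All 8 responding genes rose in each of the 4 lines. Of the 4 regulators, 3 rose in shm1 and 1, SCL14, in each of glyk1, pglp1 and hpr1, while AHBP-1B fell in glyk1 and pglp1. CYP81D11, a cytochrome P450 of that response, had at most 0.255 CPM in HC and 527 and 539 in shm1 LC, 130.4 and 125 in pglp1 LC, 8.53 and 4.18 in glyk1 LC and 169 and 145 in hpr1 LC. Both hpr1 libraries thus lay above both pglp1 libraries for CYP81D11, while for GSTU24 and GSTU25 they lay far below them. Of 6 genes listed under camalexin, 5, 4, 3 and 1 rose and none fell. The list includes CYP83B1, an enzyme of indole glucosinolate synthesis, so these counts are not of camalexin genes alone. PAD3 reached 4992 and 5804 CPM in shm1 LC. CYP79B2, at the head of the indole pathways, rose in shm1 (931 and 494 CPM in LC) and glyk1 (225 and 197) but stood at 3.76 and 7.40 in pglp1 LC. Of 14 genes of aliphatic glucosinolate synthesis, 9, 10, 7 and 1 fell and 3, 1, 0 and 0 rose, and 1 of 14 in hpr1 is close to the share of all loci called lower there. MYB28, their main regulator, stood at 56.2 to 118 CPM in HC, 4.404 and 3.304 in shm1 LC and 8.66 and 10.7 in glyk1 LC, but 132 and 54.5 in pglp1 LC (−0.15 ± 0.33, adjusted p = 0.72). GSTU20 was called lower in shm1 and glyk1 and not in pglp1. Unlike MYB28, its pglp1 LC libraries (142 and 37.3 CPM) both lay below every HC library (166 CPM or more). In WT, 0 genes of any of these lists were called. GSTF12, the anthocyanin-linked phi gene outside the member list, was called higher in hpr1 (adjusted p = 0.031) on 1 library: it had 1 count in each hpr1 HC library and in the first LC library, and 11.5 CPM in the second. It reached 174 CPM in WT LC replicate 1 without a call in WT (adjusted p = 0.13).

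The loci whose profile over the 22 libraries was most like that of 3 members were ranked by Pearson's r of log2 CPM, over 14444 loci. Loci missing in WT LC replicate 3 could not be ranked, among them GSTU8, GSTU27, GSTF8, ABCC3, PAD3, CYP81D11 and GR1. The points share groups and libraries and are not independent, so r is a description. For GSTU24 they were AT2G04070 (0.9939) and AT1G33110 (0.9881), both described as MATE efflux proteins, SUC7 (0.9895), AT4G19880, a glutathione S-transferase family protein (0.989), and AT1G15415 (0.9888). Within the family GSTU1 (0.9835), GSTU19 (0.9744) and GSTU25 (0.9733) were nearest. For GSTF7 they were AT5G12930 (0.9846), EDA39 (0.9842), ASB1 (0.9812), AT5G25930 (0.9808) and AT1G76970 (0.9806), with GSTF6 (0.98) nearest within the family. For GSTU20 they were AT2G31790, a glucosyltransferase of the aliphatic glucosinolate list (0.9732), AT3G03770 (0.9718), IMD1 (0.9706), LTP (0.9702) and APS2 (0.967), and within the family GSTF11 (0.9331) and GSTU18 (0.7829).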

How the data were processed

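Polyadenylated RNA of mature leaves was sequenced with a kit that marks no strand, partly as single-end and partly as paired-end reads. The read type of each library and the aligner are not given in the sources used here. The submitters' processing notes name CASAVA 1.8, edgeR, TAIR 9 and TAIR 10. The authors deposited 1 table of 25680 loci with read counts per locus and RPKM values for the 22 libraries. All 39 members matched a RefSeq locus (GSTU17 is listed there as ERD9).

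Samples were grouped by the genotype and CO2 labels. Library totals were 5911382 to 194460991 counts. Deposited counts were scaled by TMM, filtered with filterByExpr and fitted by edgeR 4.0.16 (R 4.3.3) with 1 mean per group over all 22 libraries, followed by robust quasi-likelihood tests for 17 comparisons. Counts of WT LC replicate 3 were treated as missing in 4996 rows (4919 in 3 displaced blocks, 77 single rows whose rule was chosen after seeing the data), so 3661 loci were fitted in 21 libraries and 16711 in 22, and p-values were adjusted over all 20372 at a threshold of 0.05. CPM are counts per TMM-scaled library of 1e6. Levels between genes use the deposited RPKM. Ratios to groups with 0 counts use a bound of 3 counts over the group, and those with 1 to 3 counts a 95% exact counting interval. Both cover counting error only, since reads without molecular identifiers are not independent molecules. The test was also run on simulated counts, with the same spread setting for every locus and changes in a small set of loci in shm1 LC only. That setting is simpler than these data, so it does not show how accurate the calls are here.

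Same-numbered WT libraries in HC and LC deviated together to some degree (r = 0.4685, 0.1703 and 0.4543). No r between differently numbered libraries was computed, so a pairing by number was not established. The main fit had no replicate block, so its WT comparison was unpaired. No replicates were duplicates, with a chi-square per degree of freedom of 9.667 or more. The named members were the 6 highest by RPKM, up to 5 per direction and comparison by fold change, and those that differed from a tandem neighbour, with up to 3 genes per other list. The members and lists were chosen with earlier results of these data known. The 31 alternatives included DESeq2 1.42.0, other filters and scaling, the replicate block and leaving out each of the 22 libraries.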

Additional observations from a re-analysis of the deposited data

Results flagged for a closer look

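Responses to low CO2 that differed from that of WT by the test of the difference itself are listed here as values, in log2 units of the line's change minus that of WT. Shares of all loci whose response was higher or lower than that of WT are given in brackets. In hpr1 1 member differed (all loci: 0.103% higher, 0.0147% lower), GSTU7 (3.56). In shm1 28 members differed (all loci: 27.4% higher, 26.4% lower). The largest positive differences were those of GSTU3 (16.21), GSTU25 (15.97), GSTU2 (15.71), GSTU24 (12.72) and GSTU22 (11.35), and the negative ones those of GSTU26 (−3.99), GSTU20 (−3.66), GSTF11 (−3.11), GSTU18 (−2.29) and GSTU27 (−1.99). In glyk1 27 members differed (all loci: 19% higher, 20.3% lower). They were led by GSTU3 (16.86), GSTU4 (9.85), GSTU25 (9.70), GSTU9 (9.68) and GSTU12 (9.36), with negative differences of GSTU20 (−3.51), GSTF11 (−2.95), GSTU26 (−2.21) and GSTU18 (−2.18). In pglp1 22 members differed (all loci: 20.8% higher, 20.6% lower). They were led by GSTU3 (17.73), GSTU25 (12.06), GSTU4 (9.71), GSTU12 (9.65) and GSTU24 (9.07), and GSTU27 (−1.75) was the negative one. Differences of members with 0 to 3 counts in a group, such as GSTU2, GSTU3, GSTU12, GSTU22 and GSTU25, depend on the prior count of the fit. Their place in these lists is therefore not read as an order of size.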

How the results depend on the processing

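No called member reversed direction under the 31 alternatives. The counts of members called in shm1, glyk1 and pglp1 between CO2 levels, against WT in LC and in the difference from the WT response stayed within 1.5 times the reported counts in all of them. Other counts did not, and the cause was not tested. Shares of all loci called under each alternative are not set beside these counts, here or elsewhere. Changes in the counts are therefore not read as particular to the family. Members called between pglp1 and WT in HC numbered 4, but 8 by DESeq2 and 2 with all rows as deposited, with the replicate block or with the fit restricted to the groups compared. For hpr1 against WT in LC, 6 became 10 by DESeq2, 0 with the groups compared alone and 3 without both WT replicate 3 libraries. For hpr1 between CO2 levels, 10 became 5 with the groups compared alone. For the hpr1 response against that of WT, 1 became 5 by DESeq2 and 0 with the groups compared alone. Leaving out each library in turn gave 1 to 12 members for hpr1 between CO2 levels, 1 to 4 for pglp1 against WT in HC, 1 to 10 for hpr1 against WT in LC and 0 to 5 for the hpr1 response against that of WT.

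Same-numbered libraries of the mutants did not pair by their deviations (r between HC and LC was −0.0956 in shm1, 0.031 in glyk1 and −0.0599 in pglp1). In hpr1 r was −0.3453, and crossing the hpr1 LC numbers, an alternative added after the data were seen, left 10 members called. With the replicate block as labelled the counts between CO2 levels were 10 in hpr1, 30 in shm1, 30 in glyk1 and 27 in pglp1. Of the members called between CO2 levels, 9 of 10 in hpr1, 3 of 30 in shm1, 4 of 28 in glyk1 and 9 of 28 in pglp1 lost the call in at least 1 alternative. Depth limits GSTU14, GSTU15, GSTU21 and GSTF14 most, since they had 8 to 86 counts in all.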
